A study of Saccharomyces cerevisiae SK1 with 6 samples.

Results

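The features examined here carry the names of 10 yeast genes that build and regulate the meiotic chromosome axis and the cohesin ring beneath it. They were chosen by systematic name, 5 of them meiosis-specific (REC8 or YPR007C, HOP1 or YIL072W, RED1 or YLR263W, MEK1 or YOR351C and PCH2 or YBR186W) and 5 acting in cohesion of every division (SMC1 or YFL008W, SMC3 or YJL074C, IRR1 or YIL026C, PDS5 or YMR076C and SCC2 or YDR180W). All 10 were found among the 7071 features listed in each library. The rule used no measured value, but the members were chosen with earlier results of these data known. Native polyA(+) RNA was read by direct RNA sequencing, in which each read is one RNA strand passed through a nanopore, from 3 ime4∆ cultures (strain SAy966, with both NDT80 and IME4 deleted) and 3 wild-type cultures (strain SAy841, with NDT80 deleted), each sequenced on a flow cell of its own. Both strains are SK1, a background that enters meiosis synchronously, and every culture was collected after 5 h in acetate sporulation medium. What is called wild type therefore lacks Ndt80, the transcription factor that takes cells out of meiotic prophase, and it differs from ime4∆ in still having IME4, the gene of the enzyme that places m6A on meiotic mRNA.

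Cohesin is a ring of paired SMC proteins closed by a kleisin subunit. In meiosis the kleisin Mcd1 is largely replaced by Rec8, and cohesin with Rec8 forms the base of the axis from which chromatin loops extend. Red1 and Hop1 assemble on that axis, the kinase Mek1 is activated there and directs repair of programmed breaks towards the homologous chromosome, and the ATPase Pch2 removes Hop1 where chromosomes have synapsed. The axis genes belong to the early meiotic programme, which is transcribed before Ndt80 acts.

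Depth lay between 177675 and 341692 counts on features in ime4∆ libraries and between 182876 and 372270 in wild-type libraries. Levels are given as CPM (counts scaled to a common library size), computed with edgeR's TMM factors, on which 3 counts correspond to 8.65 to 17.2 CPM depending on the library. The feature named IME4 had 0, 0 and 1 counts in ime4∆ and 0, 1 and 1 counts in wild type, too few to check the labels. YGL188C, a feature from the same stretch of systematic names and singled out after its values were seen, had 0, 0 and 0 counts in ime4∆ and 45, 28 and 58 counts in wild type. Chosen in that way, it cannot serve as a check of the labels, and whether it holds IME4 reads was not tested. For NDT80, which both strains lack, the feature held 13, 9 and 15 counts in ime4∆ and 17, 1 and 4 counts in wild type. The 12 features named for early meiotic genes (IME1, SPO11, ZIP1 and others) summed to between 2021 and 2472 CPM in ime4∆ and between 3861 and 4767 CPM in wild type, with 0 higher and 4 lower (SPO11, ZIP1, REC102 and REC114) among the 9 tested, beside 12.3% higher and 11.9% lower over all features tested. REC102 passed the filter on low counts in no ime4∆ library and was tested only through wild type. ZIP1 was the largest of the 12, at 1030 ± 183 CPM in ime4∆ and 2514 ± 348 CPM in wild type (SD, n = 3 each). Of the 9 tested, 6 had a negative log2 fold change and 3 (IME2, MND1 and MEI4) a positive one. IME1 was at -0.03 (adjusted p = 0.924). The 7 features named for genes that need Ndt80 summed to between 876 and 969 CPM in ime4∆ and between 1089 and 1338 CPM in wild type. CLB1 was the largest, at 395 ± 128 CPM in ime4∆ and 631 ± 162 CPM in wild type (SD, n = 3 each). SPR3 came next, at 261 and 296 CPM. SMK1 had 0, 0 and 0 counts in ime4∆ and 2, 0 and 2 counts in wild type. Of the 6 tested, 1 was higher (SPS4, tested only through ime4∆) and 1 lower (CLB1), beside the same 12.3% and 11.9%. The 6 features named for mating-type and pheromone genes summed to between 419 and 469.9 CPM in ime4∆ and between 762 and 805 CPM in wild type, with MF(ALPHA)2 at 0 in every library. STE2 alone carried that difference, at 293 ± 21.6 CPM in ime4∆ and 661 ± 42.8 CPM in wild type (SD, n = 3 each), and the other 5 summed to between 108 and 170.1 CPM in ime4∆ and between 101 and 152 CPM in wild type. The 4 features named for cyclins and other mitotic genes summed to between 469 and 560.03 CPM in ime4∆ and between 424 and 491 CPM in wild type, with CLN1 at 0 in every library. SWI5 made up most of each sum, at 462 ± 61.7 CPM in ime4∆ and 430 ± 41.7 CPM in wild type (SD, n = 3 each). CLB2 had 1, 0 and 1 counts in ime4∆ and 0 in every wild-type library. The part of these lists in the differences below was not tested.

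A feature's name may not be that of the transcript counted on it, and levels are therefore described before differences. Of 162 features named for ribosomal proteins, glycolytic enzymes and other genes whose mRNA is abundant in most growing cells, 5 lay at or above the 90th percentile of the 5706 features with a count, and 103 (63.6%) lay below the median. These cultures were collected in acetate sporulation medium, not during growth. A low level of such mRNA there and a displaced name were not told apart. Among the 24 of these that are not ribosomal, 2 lay at or above the 90th percentile and 11 below the median. Many ribosomal protein genes, and some of the 24 (TEF1 and TEF2, or ENO1 and ENO2), have a near-identical copy, between which reads cannot always be placed. Reads set aside for low mapping quality were 1.80% to 2.20% of an ime4∆ library and 1.76% to 2.45% of a wild-type library.

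The nearest such features on each side of the 10 members were 20, of which 14 lay below the median and 2 above the 90th percentile. These 2 were RPS24B, a ribosomal protein gene 3 places after HOP1 in gene order, with 2302 counts over the 6 libraries, and YEF3, an elongation factor gene 15 places before RED1, with 1048 counts. Directly after RED1 stood RPS28B with 170 counts. Around PCH2, RPS6B was listed at 222 counts 6 places before it and RPS9B at 6 counts 3 places after it. RPL34B before IRR1 had 0 counts, RPL2B after it 39, RPL2A after SMC1 1 and RPS21B before SMC3 3. A level above the 90th percentile was thus seen close to HOP1 and at some distance before RED1, and at neither of the nearest such features around REC8, MEK1, PCH2, SMC1, SMC3, IRR1, PDS5 or SCC2. Each value below is that of the feature carrying the name, and which transcripts it holds was not tested.

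**Figure D1:**
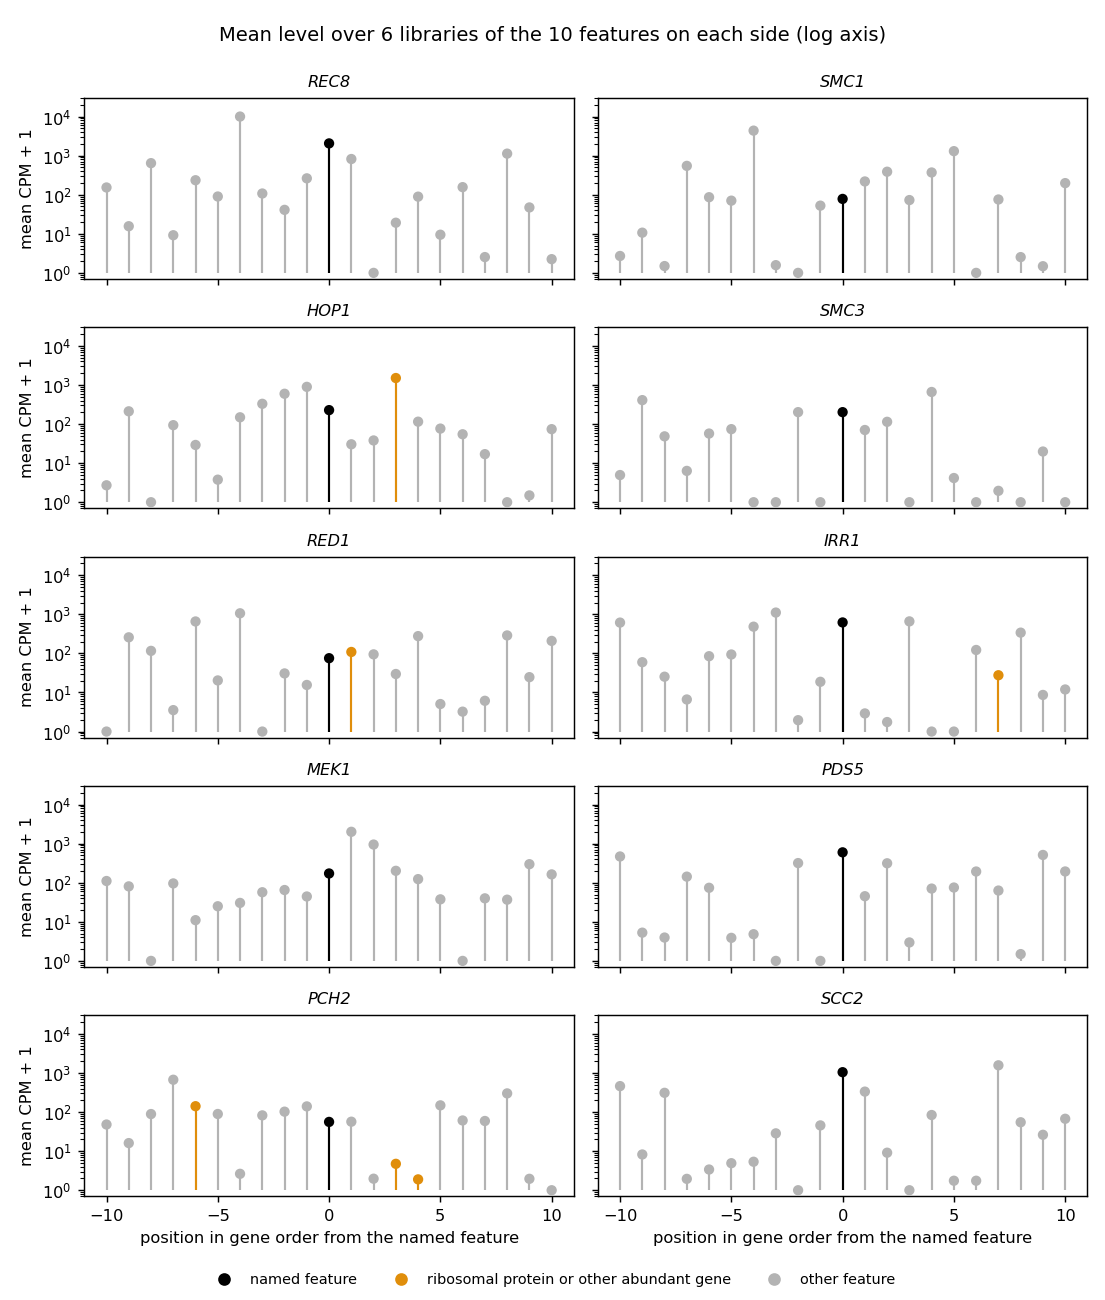
Mean CPM plus 1 over the 6 libraries (log axis) of each named feature (black, position 0) and of the 10 listed protein-coding features on each side of it in gene order. Orange marks features named for ribosomal proteins or other abundant genes, which stand high beside HOP1 (RPS24B, 2302 counts) and low beside PCH2 (RPS9B, 6 counts).

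Every member was above the level of 3 counts in all 6 libraries, the lowest value being 32.6 CPM for PCH2 in wild type. Mean levels over the 6 libraries placed REC8 at the 99.3rd percentile of features with a count, SCC2 at the 97.3rd, IRR1 at the 94.5th, PDS5 at the 94.2nd and HOP1 at the 80.5th. The lowest were PCH2 at the 49.8th percentile, RED1 at the 55.6th and SMC1 at the 56.3rd. Each level was also ranked among the 200 features nearest in coding length, where REC8 stood at the 98th percentile and SCC2 at the 91st, whereas SMC1 stood at 23.5, RED1 at 32, PCH2 at 44.5 and SMC3 at 47.5.

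**Figure D2:**
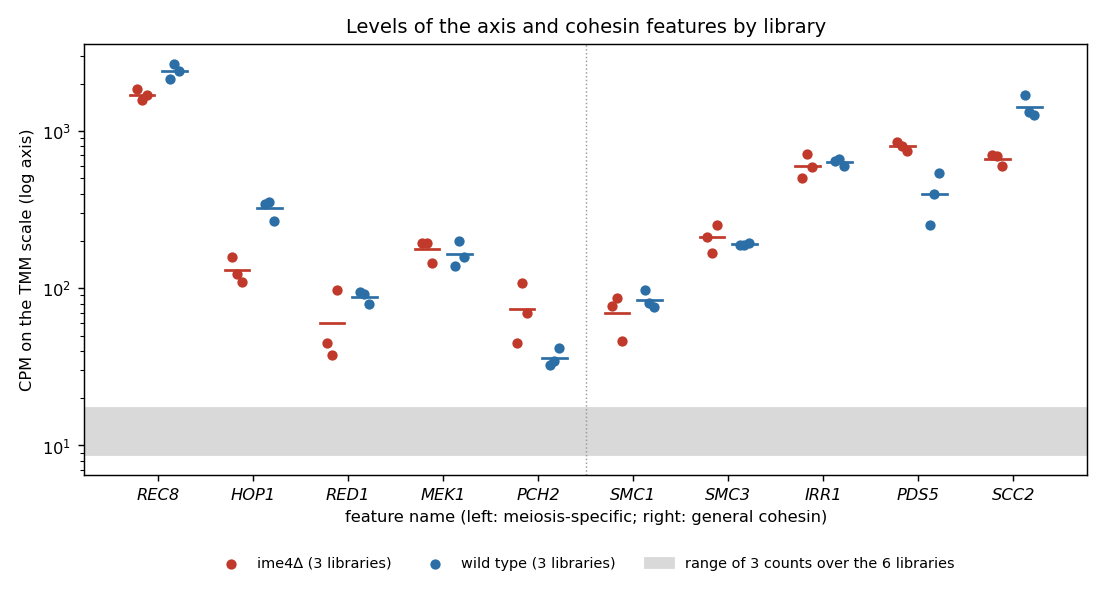
CPM on the TMM scale (log axis) of the 10 features in each library, with ime4∆ (red) to the left of wild type (blue), points for libraries and bars for means of 3. The grey band is the range that 3 counts give, 8.65 to 17.2 CPM. HOP1, REC8 and SCC2 lie lower in all 3 ime4∆ libraries, PDS5 and PCH2 lie higher, and the other 5 overlap.

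Levels of different genes are compared per kilobase of coding length, although a direct RNA read is a single molecule and its count need not scale with length, so the order without that division is given after it. Per kilobase, REC8 was the highest member in both strains, at 834 ± 66.2 CPM per kb (SD, n = 3) in ime4∆ and 1181 ± 135 CPM per kb (SD, n = 3) in wild type. The order below it differed between the strains. In ime4∆ the next were PDS5, IRR1 and SCC2, at 209, 175 and 148 CPM per kb, each overlapping the next between libraries, and then MEK1 at 119 and HOP1 at 71.7. In wild type the next was SCC2 at 319.6 CPM per kb, above every value of IRR1 (184) and HOP1 (178), which overlapped, followed by MEK1 (111) and PDS5 (103), which overlapped too. SMC3 came 7th in both strains, at 57.1 and 51.6 CPM per kb in ime4∆ and wild type. RED1, SMC1 and PCH2 took the last 3 places in both, with 24.3, 18.9 and 43.6 CPM per kb in ime4∆ and 35.7, 23.0 and 21.3 CPM per kb in wild type. In ime4∆ the range of HOP1 overlapped that of SMC3, SMC3 that of PCH2, PCH2 that of RED1 and RED1 that of SMC1, so the libraries do not fix these places. In wild type the range of PCH2 overlapped that of SMC1. Without division by length REC8 stayed first in both strains, but in ime4∆ SCC2 (665 CPM) stood before IRR1 (603 CPM), SMC3 (211 CPM) before MEK1 (177 CPM) and HOP1 (130.4 CPM), and RED1 (60.3 CPM) came last. In wild type, PDS5 (396 CPM) then stood before HOP1 (323 CPM) and SMC3 (191 CPM) before MEK1 (166 CPM).

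Between the strains, 4 of the 10 members passed the quasi-likelihood test of edgeR at an adjusted p under 0.05, with Benjamini-Hochberg adjustment across the 3231 features tested. HOP1, SCC2 and REC8 fell in ime4∆ and PDS5 rose, and 6 members did not pass. The share of all tested features that passed was 24.3%, made up of 12.3% higher and 11.9% lower in ime4∆. The called members came from both classes, 2 of the 5 meiosis-specific and 2 of the 5 general ones. Over all tested features 399 were higher and 385 lower, and with library size alone in place of the TMM factors these counts were 495 and 300 and the median log2 fold change of all features moved to 0.12, against 0.02. In bulk RNA, fewer meiotic cells and less of a transcript per cell cannot be told apart.

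REC8, the meiotic kleisin, had 409, 292 and 589 counts in ime4∆ replicates 1, 2 and 3 and 722, 469 and 698 counts in wild-type replicates 1, 2 and 3. Scaled for depth these were 1843, 1572 and 1698 CPM in ime4∆ and 2137, 2688 and 2413 CPM in wild type. The highest ime4∆ library lay below the lowest wild-type library. The means, 1704 ± 135 CPM (SD, n = 3) in ime4∆ and 2413 ± 276 CPM (SD, n = 3) in wild type, gave a log2 fold change of -0.50 (SE, the standard error of the fit, 0.15, adjusted p = 0.0212). The fall kept its direction but lost its call when any of 4 single libraries was left out. The adjusted p was then 0.117 without wild-type replicate 2, 0.0512 without wild-type replicate 3, 0.0817 without ime4∆ replicate 2 and 0.0703 without ime4∆ replicate 3. MCD1, the kleisin of mitotic cohesin, had 197 ± 40.1 CPM in ime4∆ and 156 ± 43.6 CPM in wild type (SD, n = 3 each), with a log2 fold change of 0.25 (SE 0.23, adjusted p = 0.461).

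HOP1 encodes the HORMA-domain protein that recruits Mek1 to the axis, and it showed the largest fall among the 10. It had 35, 23 and 38 counts in ime4∆ and 116, 62 and 78 counts in wild type. As CPM this was 158, 124 and 110 in ime4∆ and 343, 355 and 269.6 in wild type, and the strains did not overlap. The log2 fold change was -1.32 (SE 0.20, adjusted p = 0.000250), with a mean CPM 2.48-fold higher in wild type. The call held under all 13 alternatives run, with an adjusted p of at most 0.00499. SPO22, a meiotic gene directly before HOP1 in gene order, also fell, with 596 ± 89.1 CPM in ime4∆ and 1194 ± 161 CPM in wild type (SD, n = 3 each) and a log2 fold change of -1.01 (SE 0.16, adjusted p = 0.00044). So did SER33, the feature before SPO22, which is not named for a meiotic gene (log2 fold change -1.28, SE 0.17, adjusted p = 7.6e-05).

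RED1, the axis protein to which Hop1 binds, was counted at 10, 7 and 34 reads in ime4∆ and at 32, 16 and 23 reads in wild type. Its ime4∆ libraries spread widely, with 45.1, 37.7 and 98.0 CPM, against 94.7, 91.7 and 79.5 CPM in wild type. Replicate 3 of ime4∆ lay above every wild-type library while the other two lay below them all. The log2 fold change of -0.44 (SE 0.34, adjusted p = 0.388) did not pass. Without ime4∆ replicate 3 it was -1.08 (adjusted p = 0.0549), and with all libraries the 95% interval ran from -1.16 to 0.28.

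MEK1, the meiosis-specific kinase, had 194, 194 and 144 CPM in ime4∆ and 139, 201 and 159 CPM in wild type, from 35 to 50 counts a library. The strains overlapped, and the log2 fold change of 0.10 (SE 0.21, adjusted p = 0.776) had a 95% interval from -0.36 to 0.56. Libraries of both strains were interleaved. TFB6, directly after MEK1 in gene order and named for a subunit of a general transcription factor, rose, with 2343 ± 241 CPM in ime4∆ and 1681 ± 94.6 CPM in wild type (SD, n = 3 each; log2 fold change 0.48, adjusted p = 0.023).

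PCH2, the ATPase that remodels Hop1, was the lowest-counted member, with 10, 20 and 24 counts in ime4∆ and 11, 6 and 12 counts in wild type. The 45.1, 108 and 69.2 CPM of ime4∆ all lay above the 32.6, 34.4 and 41.5 CPM of wild type. The log2 fold change was 0.99 (SE 0.37), with an adjusted p of 0.0616, which did not pass. It was tested because all 3 ime4∆ libraries exceeded the filter on low counts, as against 1 wild-type library, so that the filter favoured a difference in that direction. Without ime4∆ replicate 1 the log2 fold change was 1.21 and passed (adjusted p = 0.0262). MBA1, directly before PCH2 and named for a mitochondrial ribosome receptor, rose with a log2 fold change of 1.34 (SE 0.26, adjusted p = 0.00184).

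Of the general members, SMC1 and SMC3, the 2 long coiled-coil ATPases of the ring, and IRR1, the subunit also called Scc3 that binds the kleisin, did not pass the test. SMC1 had 17, 16 and 16 counts in ime4∆ and 33, 14 and 22 counts in wild type, which was 69.6 ± 20.9 CPM in ime4∆ and 84.6 ± 11.5 CPM in wild type (SD, n = 3 each). Its log2 fold change was -0.36 with a 95% interval from -1.01 to 0.29. SMC3 had 212, 167 and 254 CPM in ime4∆, on both sides of the 189.4, 189.1 and 194 CPM of wild type, whose SD, 1.31% of the mean, was smaller than counting alone would give. Its log2 fold change was 0.18 with an interval from -0.23 to 0.58. IRR1 gave 505, 716 and 588 CPM in ime4∆ and 642, 665 and 598 CPM in wild type, again with ime4∆ libraries on both sides, and its log2 fold change of -0.08 had an interval from -0.41 to 0.25 and turned to 0.028 with library size alone. The adjusted p of SMC1, SMC3 and IRR1 were 0.432, 0.547 and 0.759. CDC4, before SMC1 in gene order and named for a ubiquitin ligase subunit, had 8, 5 and 2 counts in ime4∆ and 39, 11 and 18 counts in wild type and fell (log2 fold change -2.01, SE 0.48, adjusted p = 0.00655), but it was tested only because its wild-type libraries passed the filter. BLM10, after SMC1, had 0.40 on the log2 scale (adjusted p = 0.118).

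PDS5, which binds the ring and regulates both its stability and its release, rose. It had 189, 150 and 259 counts in ime4∆ and 86, 69 and 156 counts in wild type. The ime4∆ libraries were tight, at 852, 808 and 747 CPM, and lay above the 254, 395 and 539 CPM of wild type, among which replicate 1 was low and replicate 3 high. Means were 802 ± 52.7 CPM in ime4∆ and 396 ± 142 CPM in wild type (SD, n = 3 each), and the log2 fold change was 1.02 (SE 0.21, adjusted p = 0.00252). The SD of wild type was 35.9% of its mean, where counting alone would give about 9.82%. The call held in all 13 alternatives, with log2 fold changes between 0.75 and 1.34. VPS20, directly after PDS5 and named for a membrane-sorting protein, had 4, 3 and 12 counts in ime4∆ and 21, 12 and 19 counts in wild type and fell (log2 fold change -1.37, SE 0.37, adjusted p = 0.0131), likewise tested only through its wild-type libraries.

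SCC2, the large subunit of the complex that loads cohesin onto DNA, fell. It had 156, 128 and 209 counts in ime4∆ and 575, 231 and 368 counts in wild type. The 703, 689 and 603 CPM of ime4∆ lay far below the 1702, 1324 and 1272 CPM of wild type. The log2 fold change was -1.12 (SE 0.16, adjusted p = 0.000161), and all 13 alternatives kept the call. SCC4, its partner in the loader, did not pass, with 369.9 ± 51.2 CPM in ime4∆ and 365 ± 62.5 CPM in wild type (SD, n = 3 each) and a log2 fold change of 0.01 (SE 0.17, adjusted p = 0.983). SAS4, directly after SCC2, had a log2 fold change of -0.06 (adjusted p = 0.806), and NVJ3 before it -0.35 (adjusted p = 0.581).

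**Figure D3:**
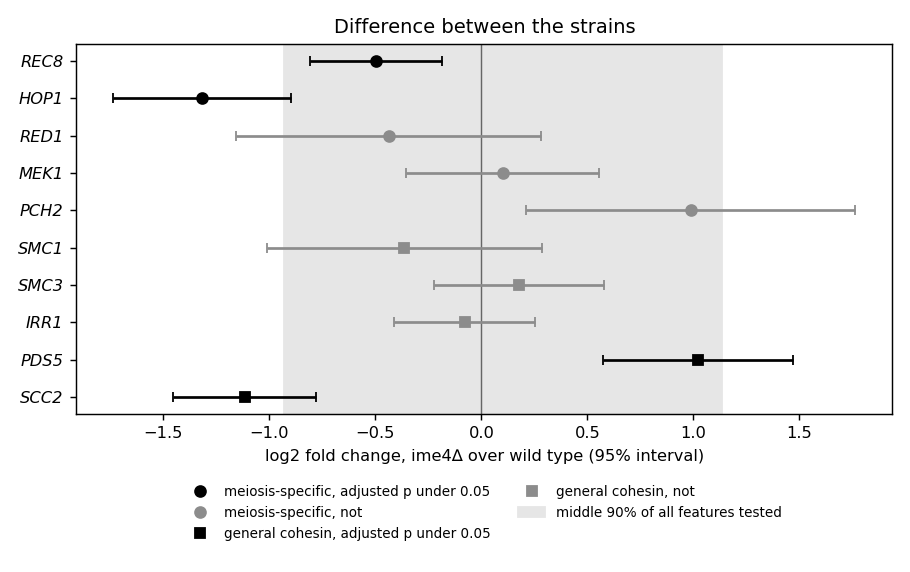
Difference between ime4∆ and wild type for each member, as a log2 fold change (edgeR) with a 95% interval built from its SE. Circles are meiosis-specific and squares general members, black where the adjusted p was under 0.05. The grey band holds the middle 90% of all 3231 tested features, from -0.93 to 1.13. HOP1 (-1.32) and SCC2 (-1.12) lie outside it.

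As a class, the meiosis-specific members had a median log2 fold change of -0.44 and the general members one of -0.08, against 0.02 over all tested features. Single members ranged from -1.32 to 0.99 in the meiotic class and from -1.12 to 1.02 in the general class, and the difference between the classes was not tested. The meiotic median was -0.79 over 4 members without ime4∆ replicate 3, -0.26 without ime4∆ replicate 1 and -0.22 without ime4∆ replicate 2. The strains did not overlap in CPM for 5 of the 10 members, as for 38.9% of all tested features. Of these members 2 were higher in ime4∆ (19.6% of all tested features) and 3 lower (19.3%). The summed level of the meiotic class was 2146 ± 127 CPM in ime4∆ and 3026 ± 317 CPM in wild type, and that of the general class 2350.3 ± 115 CPM in ime4∆ and 2739 ± 127 CPM in wild type (SD, n = 3 each). The meiotic sum divided by the general sum, which no scaling between libraries can move, was 0.973, 0.825 and 0.947 in ime4∆ and 0.952, 1.27 and 1.11 in wild type, with overlap. These sums are of CPM, and per kb the ratio was 1.80 ± 0.151 in ime4∆ and 2.25 ± 0.307 in wild type (SD, n = 3 each). REC8 made up 79.4% ± 1.84 of the meiotic sum in ime4∆ and 79.7% ± 1.82 in wild type, and SCC2 made up 28.3% ± 1.53 of the general sum in ime4∆ and 52.1% ± 6.06 in wild type (SD, n = 3 each). With SCC2 set aside, a choice made after its values were seen, the general members summed to 1685 ± 79.5 CPM in ime4∆ and 1307 ± 113 CPM in wild type. The ratio of the sums was then 1.39, 1.15 and 1.30 in ime4∆ and 2.32, 2.53 and 2.11 in wild type. With REC8 set aside as well it was 0.268, 0.261 and 0.257 in ime4∆ and 0.515, 0.513 and 0.391 in wild type. The strains did not overlap under either of these choices, both made after the values were seen.

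Ratios between partners within a library do not depend on the scaling between libraries (given per kb of coding length, pairs chosen with the values known). SCC2 over SCC4 was 0.687, 0.824 and 0.760 in ime4∆ and 1.66, 1.53 and 1.75 in wild type, and the strains were far apart. Whether this ratio lies above or below 1 depends on the division by length, without which it was 1.64, 1.97 and 1.82 in ime4∆ and 3.97, 3.67 and 4.18 in wild type, whereas the fold between the strains does not. PDS5 over IRR1, 2 regulatory subunits that both contact the kleisin, was 1.52, 1.02 and 1.14 in ime4∆ and 0.357, 0.536 and 0.812 in wild type. HOP1 over MEK1 was 0.669, 0.525 and 0.625 in ime4∆ and 2.03, 1.46 and 1.39 in wild type. For each of these pairs, all ime4∆ libraries lay on one side of all wild-type libraries. The same held for SCC2, PDS5 and HOP1 alone, so these ratios are not separate results.

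REC8 over MCD1 ran from 5.40 to 8.51 in ime4∆ and from 9.11 to 20.6 in wild type, and REC8 over SMC3 had a median of 15.7 in ime4∆ and of 22.5 in wild type, both pairs without overlap, as for REC8 alone. HOP1 over RED1 was 4.78, 4.49 and 1.53 in ime4∆ and 4.95, 5.29 and 4.63 in wild type, overlapping. SMC1 over SMC3, 2 proteins that pair in equal number, stood below 1 in every library, at 0.363, 0.518 and 0.183 in ime4∆ and 0.518, 0.426 and 0.394 in wild type.

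**Figure D4:**
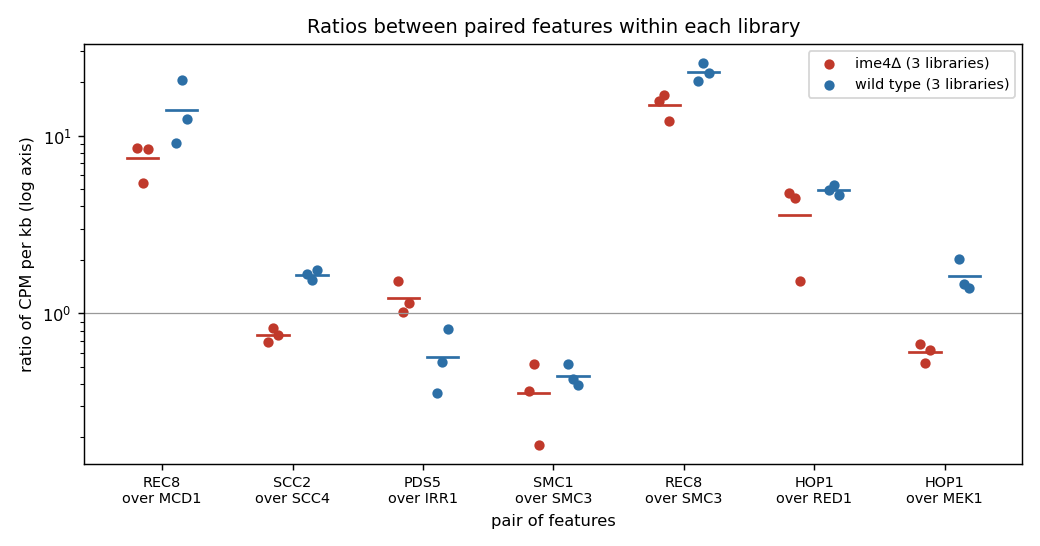
Ratio of CPM per kb between paired features in each library (log axis), ime4∆ (red) left of wild type (blue), with bars for the means of 3. SCC2 over SCC4 lies lower in ime4∆ (0.687 to 0.824) than in wild type (1.53 to 1.75), PDS5 over IRR1 lies higher in ime4∆, and SMC1 over SMC3 overlaps. The position relative to 1 rests on the division by coding length for SCC2 over SCC4.

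A list of 23 further genes of cohesion, condensin, monopolin, the checkpoint kinases and Pch2's partners was set beside the members. All were listed, 16 were tested, and 4 rose and 0 fell in ime4∆, beside 12.3% higher and 11.9% lower over all features tested. PDS1, the securin that restrains separase, had 15, 14 and 21 counts in ime4∆ and 4, 2 and 7 counts in wild type, with a log2 fold change of 2.01 (SE 0.40, adjusted p = 0.00184), and it was tested only through the ime4∆ libraries. TEL1, a kinase acting on breaks upstream of Hop1, had a log2 fold change of 0.79 (SE 0.16, adjusted p = 0.00184). MAM1, the meiosis-specific monopolin subunit, had 0.81 (SE 0.26, adjusted p = 0.0306), and BRN1, the kleisin of condensin, had 0.63 (SE 0.21, adjusted p = 0.0367), with strains that overlapped for BRN1.

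The median over the 16 was 0.12. With any of 4 libraries left out (wild-type replicate 1 or 2, ime4∆ replicate 2 or 3), or with DESeq2, 2 of them passed instead of 4. Separase (ESP1) had 279 ± 41.1 CPM in ime4∆ and 267.5 ± 37.2 CPM in wild type (SD, n = 3 each; log2 fold change 0.06, adjusted p = 0.845). The Smc3 acetyltransferase ECO1 (12, 6 and 11 counts in ime4∆, 22, 4 and 3 in wild type) and the release factor RAD61 (14, 4 and 11 counts in ime4∆, 9, 4 and 7 in wild type) were below the filter and were not tested. SPO13, which protects centromeric cohesion in the first meiotic division, was at 1, 2 and 0 counts in ime4∆ and 6, 0 and 2 in wild type.

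The direct neighbours of the 10 members in gene order, 20 features of which 14 were tested, included 2 that rose and 3 that fell, beside 12.3% higher and 11.9% lower over all features tested. Of the 3 that fell, CDC4 and VPS20 passed the filter only through wild type. SPO22 moved in the direction of its member, HOP1. Neighbours of SCC2, REC8, RED1 and SMC3 that were tested did not pass. ICL2, before REC8, came nearest to passing, with 225 ± 9.07 CPM in ime4∆ and 299 ± 15.8 CPM in wild type (SD, n = 3 each; log2 fold change -0.41, adjusted p = 0.0696). The neighbours of IRR1, EMC5 and ATG45, held at most 9 counts in any library, and YMR075C-A beside PDS5 and APQ13 beside SMC3 were at 0 in every library.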

How the data were processed

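The authors deposited 1 table of raw read counts per feature for each of 6 libraries. Per the study's methods, native RNA was sequenced on nanopore flow cells, base called, filtered and aligned with minimap2, and HTSeq is the counter named in the submitters' processing notes. The genome build and annotation of the counts are not given in the sources used here. Rows for reads on no feature, ambiguous reads or low mapping quality were left out of library sizes. They held between 8.20% and 9.60%, between 12.9% and 17.9%, and between 1.76% and 2.45% of reads in a library.

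The counts went into edgeR 4.0.16 (R 4.3.3) with TMM factors, filterByExpr with a minimum count of 10 (38.1 CPM in at least 3 libraries), the quasi-likelihood test of ime4∆ over wild type and Benjamini-Hochberg adjustment over 3231 features, with a threshold of 0.05. On simulated counts for these 3231 features, 76% of changes of 1 on the log2 scale and 100% of changes of 2 were recovered, and 2.22% of calls were wrong. Those counts were drawn with the dispersions of the same fit, with 200 features changed, independent libraries and no filter on low counts. They therefore do not give the error rate of the calls on the real libraries. The order of the members and the ratios between paired features were computed per kilobase of coding length, and without that division as an alternative added after seeing the data. Percentiles and the sums over a class are of CPM, not divided by length. Coding length, gene order and symbols came from RefSeq R64, in which 6006 of the 7071 names were found, and no coordinates or sequences were taken from it. A count of 3 was taken as the floor of a library, and this floor and the counting SDs cover counting error only. With 3 against 3 libraries no exact permutation test can give a p below 0.1. The study's methods describe the cultures as biological replicates, and the labels give only replicate numbers. The p-values rest on the spread between libraries, in which culture, library and flow cell are not told apart. The members and gene lists were chosen with earlier results of these data known. Named genes were the 10 members, the called genes of the cohesion list and the partners of the members' complexes, the deleted genes, the nearest abundant genes and the direct neighbours. SER33 was added after its values were seen. Alternatives were RLE factors, library size alone, no filter, at least 10 counts in every library, DESeq2 1.42.0, downsampling to 177675 counts, a replicate block, and leaving out each library.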

Additional observations from a re-analysis of the deposited data

How the results depend on the processing

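HOP1, PDS5 and SCC2 kept their direction and call in all 13 alternatives. Of 126 values of single members under the alternatives, 115 kept direction and side of the threshold, 4 lost the call (REC8, each with 1 library left out) and 3 gained it. PCH2 gained it with library size alone (1.09, adjusted p = 0.0459), with the replicate block (0.91, adjusted p = 0.0373) and without ime4∆ replicate 1. Members that were not called changed sign in 4 cases: IRR1 was 0.028 with library size alone, and with single libraries left out IRR1 ran from -0.19 to 0.024, MEK1 from -0.030 to 0.26 and SMC3 from -0.00045 to 0.31. DESeq2 called 504 features (784 with edgeR) and 2 of the cohesion list (4 with edgeR), and the cause was not tested. With 1 library left out, 558 to 782 features, 3 to 5 members and 2 to 4 genes of the cohesion list were called, the medians ran from -0.79 to -0.22 (meiosis-specific) and from -0.19 to 0.02 (general), and the ratio of the class sums, ime4∆ over wild type, ran from 0.770 to 0.890. PCH2 was below the filter with at least 10 counts in every library, after downsampling and without ime4∆ replicate 3, and RED1 with at least 10 counts, so these gave no value. Libraries of the 2 strains share replicate numbers. Their deviations from the strain means correlated at 0.250, 0.0823 and 0.188 for the same number over 2551 features, each library best with its own number. However, 1 pair was not over 0.1 and nothing in the labels pairs the cultures. Ambiguous reads in replicates 1, 2 and 3 were 17.9%, 12.9% and 13.6% in ime4∆ and 17.1%, 14.2% and 14.5% in wild type. Reads of low mapping quality were 1.80%, 2.20% and 2.09% in ime4∆ and 1.76%, 2.45% and 2.17% in wild type. For each, the order of the replicates was the same in both strains. Whether libraries of the same number share a batch was not tested, and the main test has no term for it. The replicate block called 1027 features and 5 members, and REC8 had an adjusted p of 0.000565. At 6 to 34 counts a library, RED1, PCH2 and SMC1 leave wide intervals, and a difference in them may not be detectable at this depth.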
